A study of Mus musculus with 12 samples.

Results

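Mouse B cells that had divided at least 8 times and were still negative for the plasma cell marker CD138 (Div8neg) were set against B cells that had divided 5 times (Div5). CD138, encoded by Sdc1, is the surface proteoglycan by which plasma cells are sorted. The comparison used 4 of the 12 RNA-seq libraries of the series, 2 per group, and all genes with at least 10 counts in both libraries of either group, which left 11407 of 21671 genes with a symbol. Of these, 10909 passed in both groups, 307 through Div8neg only and 191 through Div5 only.

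When lipopolysaccharide (LPS) binds TLR4 on a B cell, the cell grows and divides, and after several divisions some of its progeny become antibody-secreting plasma cells. The transcription factors BLIMP1 (Prdm1), IRF4 and XBP1 drive that change. BLIMP1 shuts down the B cell factors PAX5, BACH2 and CIITA, and XBP1 widens the endoplasmic reticulum (ER), where antibody is folded and loaded for export. A bulk library averages over all cells of a sort, whichever way they are headed.

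The Div8neg and Div5 cells came from the same 2 hosts and shared donor strain, treatment and time. B220+ CD43- B cells of naive spleens, given as C57/BL6J in the design text while the labels give the strain as B6.SJL-Ptprca Pepcb/BoyJ (female, 8 weeks), were stained with CFSE or CTV, dyes that dilute at each division. They were placed in uMT hosts, which lack B cells of their own but keep their other blood cells, and LPS was given after a night of rest. Spleens were sorted 3 days later, and each library came from 40000 cells. Each group held 1 library from host 196 and 1 from host 197, and the number of donors is not stated in the labels. Every p-value rests on the spread left after group and host were fitted to all 12 libraries. For the counts that spread was partly shared among genes. Per cell it came wholly from a trend over all genes, so per-cell p-values do not reflect a gene's own spread. With 2 hosts no p-value can speak for other animals. Because CD138 was used to choose the Div8neg cells but is not mentioned for Div5, Sdc1 is described here and not read as a finding.

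The 4 libraries held 12464759 to 14165452 gene counts, within the 11551585 to 14975133 of the series, with 180169 to 266811 counts over the ERCC spike-in RNAs that were added to each sample before extraction. The B cell markers were abundant, at 6371 and 6188 summed CPM (counts per 1e6 gene counts) in Div8neg, against 9344 and 9263 in Div5. Of them 8 of 8 were called lower in Div8neg, against 30.1% of all genes. Plasma cell markers summed to 996 and 1158 CPM in Div8neg, against 579 and 668 in Div5. Markers of other cells summed to less than either list in every library. NK cell markers, most of it Prf1, summed to 7.99 and 6.86 CPM in Div8neg against 15.95 and 13.07 in Div5. Erythroid markers summed to 30.0 and 15.3 CPM in Div8neg against 36.6 and 9.40 in Div5. Stromal and endothelial markers summed to 179.6 and 167.5 CPM in Div8neg against 256 and 249.7 in Div5. Most of that was Pecam1 (172 and 157 CPM in Div8neg, 249 and 242 in Div5), while Col1a1, Col1a2 and Col3a1 had 0 to 7 counts. T cell markers summed to 17.2 and 18.4 CPM in Div8neg against 39.9 and 37.2 in Div5, most of it Lck, while Cd3d, Cd3e and Cd3g had 0 to 3 counts in every library. Neutrophil markers ranged more between hosts than between groups, at 9.38 and 17.8 CPM in Div8neg against 4.23 and 24.5 in Div5. Macrophage markers overlapped between the groups (57.9 and 67.6 CPM in Div8neg, 63.9 and 51.7 in Div5), with Vsig4 at 0. Platelet markers were higher in Div8neg in both hosts (10.4 and 15.5 CPM, against 5.49 and 5.42 in Div5), and 3 of 5 tested passed. Among the tested ones Pf4, Gp9 and Gp1bb met the count minimum through Div8neg only, so the number that passed is not read. Dendritic cell markers, most of it Flt3, summed to 204 and 186 CPM in Div8neg against 443 and 414 in Div5, with Clec9a and Clec4a4 at 0.

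Div8neg cells held more mRNA than Div5 cells. The deposited values give 96792 and 103520 mRNAs per cell in Div8neg (hosts 196 and 197), against 74919 and 67875 in Div5. Both Div8neg libraries were above both Div5 libraries, and the ratio was 1.29 in host 196 and 1.53 in host 197 (mean 1.41 ± 0.165, SD, n = 2). Leaving out the 10 highest genes gave a mean ratio of 1.42. An exact permutation test of 2 against 2 libraries cannot go below p = 0.333, so this ratio is given as a value. Changes are therefore given on both scales for the gene lists and for many of the genes. Changes relative to all genes come from the counts, where TMM scaling sets the median change to 0.00 on the log2 scale, and changes per cell come from the mRNAs per cell, where the median change of all tested genes was 0.43. In bulk RNA, fewer cells of a kind and less RNA per cell cannot be told apart.

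Relative to all genes, 6899 of 11407 genes passed the test (60.5%; edgeR quasi-likelihood test with the host as a block, Benjamini-Hochberg adjusted p under 0.05), 3469 higher (30.4%) and 3430 lower (30.1%) in Div8neg. Most changes were small: the median size among called genes was 0.43 on the log2 scale, and 899 genes (7.88%) changed by 2-fold or more, 398 higher (3.49%) and 501 lower (4.39%). In 6898 of the 6899 called genes both hosts moved the same way, and in 6876 the libraries of the groups did not overlap, as in 9275 of all genes tested (81.3%). The calls were made with these same libraries, which favours such agreement, so it is not separate support. Without the host block 6441 genes passed. Per cell, 5782 genes passed (50.7%; limma on log2 of mRNAs per cell plus 0.1), 5337 higher (46.8%) and 445 lower (3.9%).

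The scales part on the falling genes. Of the 3469 genes higher relative to all genes, 3459 were also higher per cell. Of the 3430 lower ones only 445 (13.0%) were lower per cell, and for the other 2985 the mRNA number per cell did not pass in either direction. Among the 501 genes lower by 2-fold or more, 439 were lower per cell. A further 1878 genes that did not pass relative to all genes were higher per cell. The per-cell count depends on single libraries: it was 2567 without the Div5 library of host 197, 2637 and 3029 without the Div8neg library of host 196 or 197, and 6169 without the Div5 library of host 196, and in each of these the higher genes outnumbered the lower ones.

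**Figure D1:**
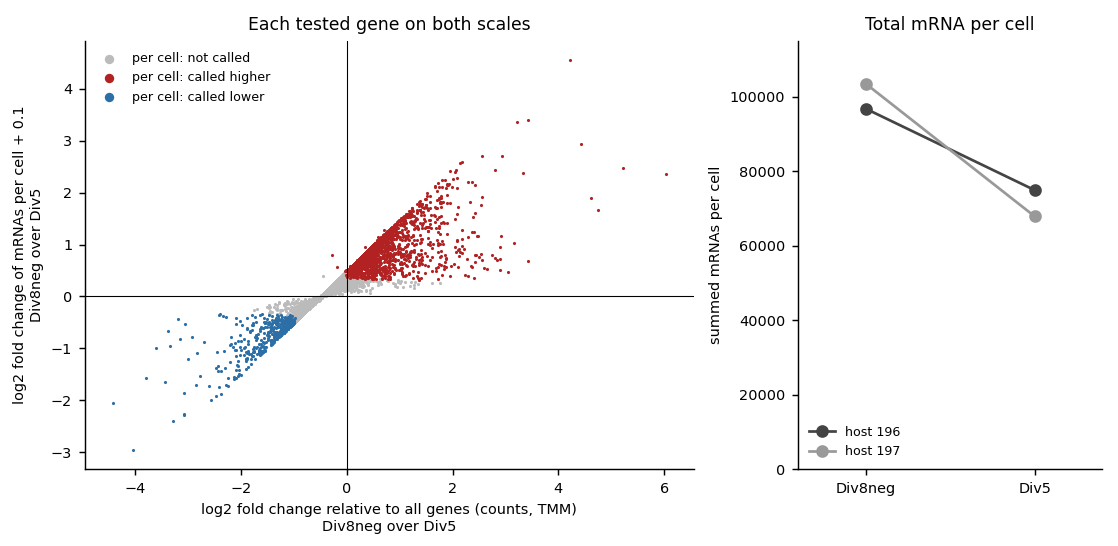
Left, each of the 11407 tested genes by its log2 fold change of Div8neg over Div5 relative to all genes (horizontal axis) and of mRNAs per cell plus 0.1 (vertical axis), with red for genes called higher per cell, blue for genes called lower per cell and grey for the rest. Right, the summed mRNAs per cell in each library, joined by host: 96792 and 103520 in Div8neg, against 74919 and 67875 in Div5.

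Several of the largest rises were in genes with little mRNA at every earlier division. Slpi encodes a secreted inhibitor of neutrophil serine proteases. It stood at 96.9 and 77.95 CPM in Div8neg, against 4.01 and 5.42 CPM in Div5, which is 18.6-fold higher (log2 4.22, SE 0.21, adjusted p = 7.60e-12). In Div0 to Div3 it had not passed 7.59 CPM in any library, so both Div8neg libraries stood apart from all the libraries of fewer divisions. Per cell it rose to 23.5 and 20.5 mRNAs in Div8neg, against 0.765 and 0.927 in Div5.

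Anxa2, encoding annexin A2, a calcium-dependent membrane-binding protein, was at 29.6 and 32.6 CPM in Div8neg, against 3.12 and 2.63 CPM in Div5 (10.8-fold, SE 0.20 on the log2 scale, adjusted p = 3.78e-11). Its groups were far apart and the hosts close to each other. S100a6, which encodes a small calcium-binding protein, was at 25.0 and 25.5 CPM in Div8neg, against 4.23 and 7.41 CPM in Div5 (4.42-fold). Lcp2 encodes SLP-76, the adaptor that carries antigen-receptor signals in T cells. It was at 22.01 and 18.3 CPM in Div8neg, against 1.63 and 3.75 CPM in Div5 (7.604-fold, adjusted p = 3.16e-08), while the T cell receptor complex genes Cd3d, Cd3e and Cd3g stayed at 0 to 3 counts. Platelets carry Lcp2 as well, and their summed markers were higher in Div8neg as given above, whose part in this rise was not tested. Macrophages carry much Anxa2, S100a6 and Lcp2 mRNA. The summed macrophage markers overlapped between the groups as given above. Of the 11 tested 2 rose, against 30.4% of all genes. Cd68 was at 29.4 and 33.9 CPM in Div8neg, against 23.6 and 21.4 CPM in Div5. Ly6c2 was at 5.903 and 7.85 CPM in Div8neg, against 1.48 and 1.75 CPM in Div5. Another 5 fell, against 30.1% of all genes. C1qa, C1qb and C1qc met the count minimum through Div5 only, so the number that fell is not read. The part of macrophages in the rises of Anxa2, S100a6 and Lcp2 was not tested.

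S1pr2 encodes the sphingosine 1-phosphate receptor that holds germinal centre B cells in place. It stood at 27.98 and 27.4 CPM in Div8neg, against 5.12 and 4.22 CPM in Div5 (5.91-fold, adjusted p = 9.29e-10). The hosts were close within each group, and the groups were far apart. Mybl1, which encodes A-MYB, a transcription factor of proliferating germinal centre B cells, was at 15.1 and 15.4 CPM in Div8neg, against 3.64 and 3.51 CPM in Div5 (4.26-fold). Uchl1, a ubiquitin hydrolase gene, was at 41.4 and 44.3 CPM in Div8neg, against 8.76 and 10.1 CPM in Div5 (4.54-fold), and Myadm, which encodes a membrane protein of maturing myeloid cells, was at 66.1 and 67.4 CPM in Div8neg, against 14.9 and 17.5 CPM in Div5 (4.12-fold). Among the others, Itga8 (integrin alpha 8, 5.904-fold), Diras2 (a Ras-like GTPase, 4.87-fold) and the unnamed locus Gm6455 (4.17-fold) rose with no overlap between the groups.

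Cdkn2a encodes both p16INK4a, an inhibitor of CDK4 and CDK6, and p19ARF, which shields p53, from shared exons that these counts do not separate. It was at 20.4 and 16.5 CPM in Div8neg, against 1.56 and 2.39 CPM in Div5 (9.35-fold, adjusted p = 2.85e-10). Per cell that was 4.46 and 3.91 mRNAs in Div8neg, against 0.269 and 0.369 in Div5. Its neighbour Cdkn2b, which encodes p15INK4b and was singled out after its values were seen, had 59 and 40 counts in Div8neg, against 6 and 3 counts in Div5. Cdkn2b met the count minimum through Div8neg only, so its test is not read. Cdkn1a (p21) rose too, at 6.32 and 7.77 CPM in Div8neg, against 2.67 and 3.03 CPM in Div5 (2.46-fold), and was likewise named after its values were seen.

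The largest falls included genes best known outside the immune system. Grm6, which encodes a metabotropic glutamate receptor best known in the retina, fell to 3.54 and 3.505 CPM in Div8neg, against 60.4 and 54.98 CPM in Div5 (16.4-fold lower, log2 -4.03, SE 0.13, adjusted p = 2.89e-14). The groups were far apart, and Div3 had 113 and 127 CPM. Aire, the gene for the autoimmune regulator of thymic epithelium, fell to 2.22 and 2.59 CPM in Div8neg, against 27.2 and 19.5 CPM in Div5 (9.75-fold lower). Zfp318 encodes the zinc finger protein that lets B cells make the long transcript for surface IgD. It fell to 10.4 and 10.97 CPM in Div8neg, against 94.5 and 84.2 CPM in Div5 (8.37-fold lower, adjusted p = 5.34e-15), with 258 and 213 CPM in Div3.

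Icosl encodes the ligand through which B cells engage ICOS on helper T cells. It was at 46.5 and 32.8 CPM in Div8neg, against 229 and 185 CPM in Div5 (5.202-fold lower, adjusted p = 1.37e-14). Its Div8neg libraries were far below both Div5 libraries. Shank1, a scaffold protein gene, was at 11.7 and 11.5 CPM in Div8neg, against 105 and 88.9 CPM in Div5 (8.37-fold lower), and Ephx1, for microsomal epoxide hydrolase, was at 8.61 and 9.297 CPM in Div8neg, against 49.04 and 49.96 CPM in Div5 (5.54-fold lower). The other members of the 12 largest falls were Fam101b (8.44-fold), Ptpn14 (a tyrosine phosphatase, 7.21-fold), Rapgef4 (a cAMP-activated exchange factor, 7.099-fold), Amica1 (the adhesion molecule JAML, 6.04-fold), Rasgef1b (a Ras exchange factor, 5.94-fold) and Map3k19 (a kinase, 5.31-fold).

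**Figure D2:**
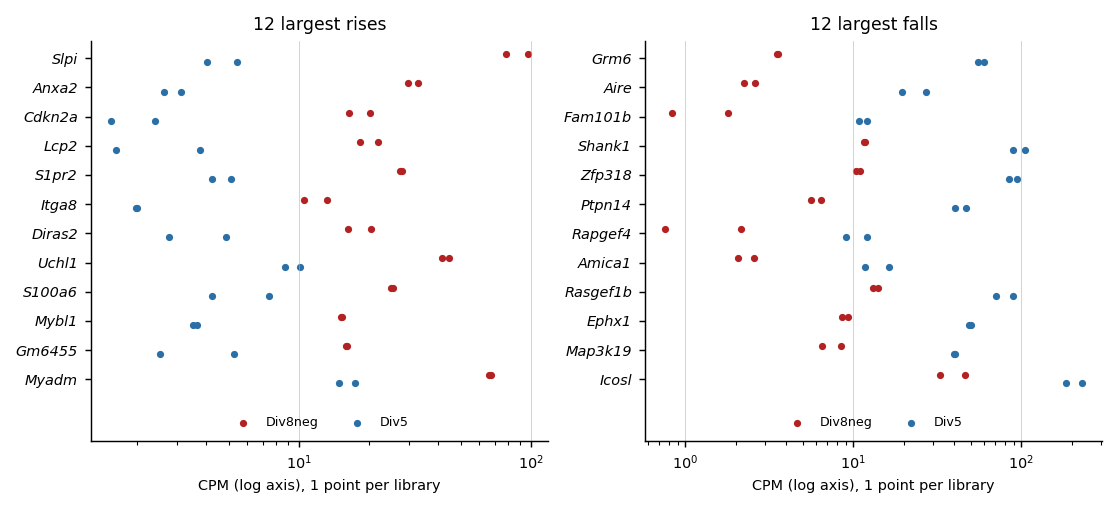
CPM on a log axis for the 12 largest rises (left) and the 12 largest falls (right) among called genes with at least 10 CPM in the higher group, 1 point per library, with Div8neg in red above Div5 in blue. The genes were picked by the size of their change in these same libraries, which favours groups that do not overlap. The libraries of the groups do not overlap for any of the 24 genes, as for 81.3% of all genes tested. Slpi is at 96.9 and 78.0 CPM in Div8neg, against 4.01 and 5.42 in Div5.

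The falls were not only relative. Per cell, Grm6 fell to 0.166 and 0.178 mRNAs per cell in Div8neg, against 2.23 and 1.82 mRNAs per cell in Div5. The limma fold, taken on mRNAs per cell plus 0.1, was 7.76 (adjusted p = 2.43e-42). The added 0.1 makes this fold smaller than that of the mRNA numbers themselves. The p-value rests on the spread shared by all genes and not on that of Grm6 alone. Zfp318 fell to 0.3099 and 0.354 mRNAs per cell in Div8neg, against 2.21 and 1.76 mRNAs per cell in Div5, and Icosl to 3.37 and 2.58 mRNAs per cell in Div8neg, against 13.01 and 9.42 mRNAs per cell in Div5. Few genes passed as lower per cell by any size, 445 of 11407 (3.9%). The 10 largest per-cell falls with at least 1 mRNA per cell in the higher group were Grm6, Aire, Shank1, Zfp318, Rasgef1b, Ephx1, Icosl, Map3k19, Amica1 and Lrrk2. Their log2 values, also of mRNAs per cell plus 0.1, were -2.96 to -1.72. Lrrk2, a kinase gene best known from Parkinson disease, had 2.81 and 3.402 mRNAs per cell in Div8neg, against 11.4 and 9.55 mRNAs per cell in Div5. The 5 largest per-cell rises were Slpi (4.55), Anxa2 (3.40), Cdkn2a (3.36), S1pr2 (2.70) and Lcp2 (2.70) on the log2 scale of mRNAs per cell plus 0.1.

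Prdm1, Irf4 and Xbp1, the regulators of plasma cell formation, rose. Prdm1 was at 50.7 and 65.7 CPM in Div8neg, against 17.5 and 25.9 CPM in Div5 (2.69-fold, log2 1.43, SE 0.13, adjusted p = 2.87e-08). Both Div8neg libraries were above both Div5 libraries, and host 197 was the higher host in each group. Irf4 was at 226 and 252 CPM in Div8neg, against 145 and 163 CPM in Div5 (1.55-fold, adjusted p = 2.46e-08). In Div0 it was at 267 and 263 CPM, above both Div8neg libraries. Xbp1 was at 242 and 280.5 CPM in Div8neg, against 146 and 166 CPM in Div5 (1.68-fold, adjusted p = 6.26e-09). The Div8neg levels of these genes are small beside those of the CD138-positive cells of the same hosts (Div8pos). There Prdm1 was at 333 and 326 CPM, Irf4 at 1230 and 1185 CPM and Xbp1 at 1680 and 1612 CPM. Sdc1, whose product the sort used, was at 3.54 and 5.87 CPM in Div8neg, against 2.67 and 4.702 CPM in Div5, with overlapping groups, while Div8pos had 335 and 314 CPM.

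Of 20 tested plasma cell genes 15 rose and 1 fell, against 30.4% and 30.1% of all genes, with a median of 0.76 against 0.00 for all genes. Per cell 19 rose and 1 fell, against 46.8% and 3.9% of all genes. Sdc1 is one of the 20, uncalled relative to all genes and among the 19 per cell. Bhlha15 encodes MIST1, a transcription factor of secretory cells, and rose most (4.04-fold), to 27.3 and 38.7 CPM in Div8neg, against 6.08 and 10.3 CPM in Div5. Igj, the joining chain of secreted IgM, was at 119 and 163 CPM in Div8neg, against 36.3 and 63.2 CPM in Div5 (2.86-fold). Eaf2, an elongation factor gene, was at 13.1 and 14.5 CPM in Div8neg, against 3.93 and 5.897 CPM in Div5 (2.82-fold). In each of these genes host 197 was above host 196 in both groups, and the groups did not overlap. Trp53inp1, a p53 target, was the member that fell (2.04-fold lower).

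**Figure D3:**
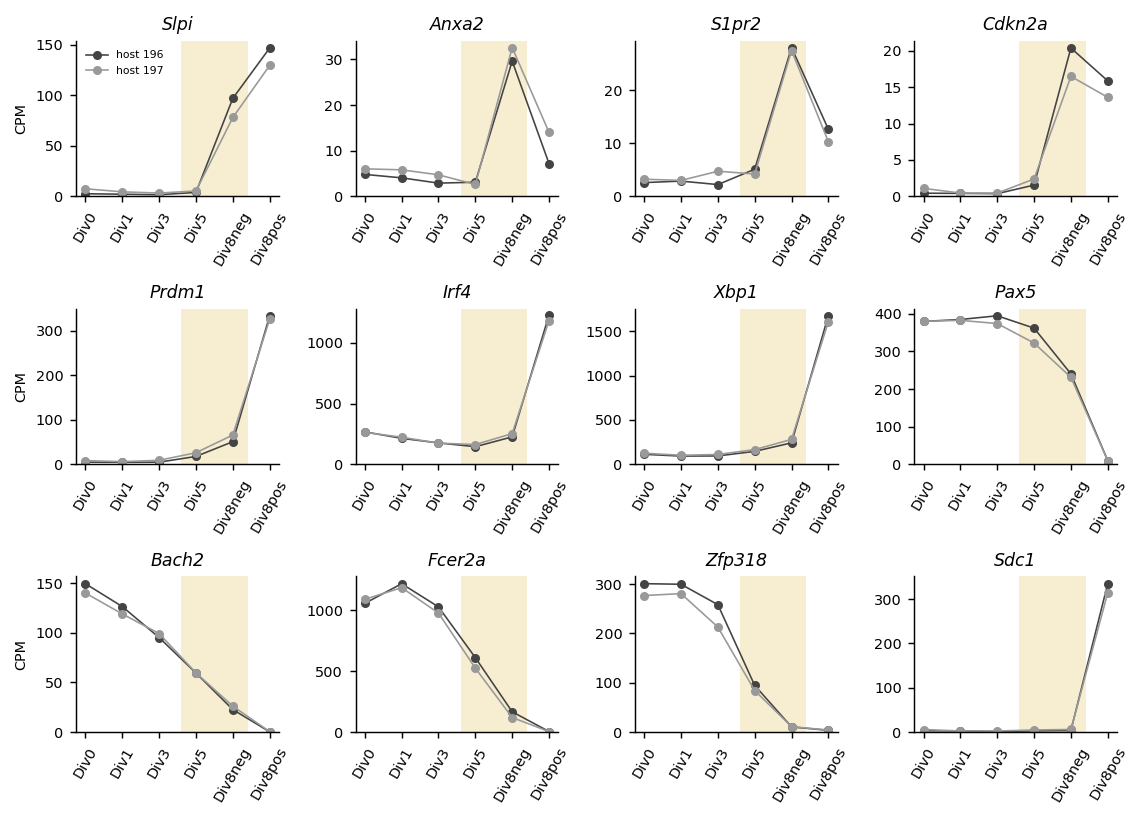
CPM of 12 genes in each library from Div0 to Div8pos, 1 line per host, with Div5 and Div8neg shaded. Slpi, Anxa2, S1pr2 and Cdkn2a are near their floor up to Div5, Prdm1, Irf4 and Xbp1 reach most of their level only in Div8pos (325.5 and 333 CPM for Prdm1), and Pax5, Bach2, Fcer2a and Zfp318 are lower at each stage after Div3, with Bach2 declining from Div0 and Zfp318 from Div1.

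Most of the B cell transcription factors listed fell relative to all genes. Pax5, which sets B cell identity, was at 240.4 and 231 CPM in Div8neg, against 362 and 322 CPM in Div5 (1.45-fold lower, SE 0.049 on the log2 scale, adjusted p = 2.50e-08). Its groups did not overlap, but per cell it was at 49.6 and 51.7 mRNAs per cell in Div8neg, against 58.7 and 46.8 mRNAs per cell in Div5, with a log2 difference of -0.051 (adjusted p = 0.857). Bach2, the repressor that holds back Prdm1, fell on both scales. It was at 22.6 and 26.1 CPM in Div8neg, against 59.4 and 59.6 CPM in Div5 (2.45-fold lower, adjusted p = 1.05e-10) and its per-cell log2 change was -0.72 (adjusted p = 0.00205). Foxo1 (98.3 and 100.2 CPM in Div8neg, against 193 and 185 CPM in Div5), Ebf1 (85.3 and 78.9 CPM in Div8neg, against 159 and 142 CPM in Div5) and Ciita (450.2 and 433 CPM in Div8neg, against 810.1 and 749 CPM in Div5), the last being the master regulator of MHC class II genes, fell 1.904-, 1.83- and 1.76-fold while the per-cell test gave adjusted p = 0.0833, 0.134 and 0.193. Bcl6, the germinal centre repressor, was 1.16-fold lower (adjusted p = 0.0249), and its log2 change turned to 0.27 with spike-in scaling. Over the 20 transcription factors, 12 fell and 4 rose (median -0.29), against 30.1% and 30.4% of all genes. Per cell 1 fell and 5 rose (median 0.18), against 3.9% and 46.8% of all genes. Klf2, a factor of resting and recirculating lymphocytes, was the member with the largest rise (1.39-fold).

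Most surface genes of mature B cells fell relative to all genes, some of them per cell too. Fcer2a, the low-affinity IgE receptor CD23, was at 166 and 119 CPM in Div8neg, against 610 and 524 CPM in Div5 (3.98-fold lower, adjusted p = 4.19e-13). Cr2, complement receptor CD21, was at 231 and 179 CPM in Div8neg, against 842 and 680 CPM in Div5 (3.72-fold lower). Faim3, the Fc receptor for IgM, was at 37.9 and 46.1 CPM in Div8neg, against 152 and 140.1 CPM in Div5 (3.48-fold lower). In all 3 the highest Div8neg library was below the lowest Div5 library by more than 2-fold, and all 3 fell per cell as well (log2 -1.51, -1.40 and -1.30). Cd83 (2.66-fold lower) and Siglecg (2.16-fold lower), a brake on B cell receptor signals, also fell on both scales. Of 25 surface genes 19 fell, 6 of them by 2-fold or more, and 3 rose (median -0.58), against 30.1% and 30.4% of all genes. Per cell 6 fell and 4 rose (median -0.10), against 3.9% and 46.8% of all genes. The risers included Cd24a (1.41-fold) and Fcgr2b.

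In the B cell receptor signalling list 15 of 22 fell and 2 rose (median -0.22), while per cell 0 fell and 4 rose (median 0.27). This list and the MHC class II list can be read against 30.1% of all genes lower and 30.4% higher (3.9% and 46.8% per cell). Blk, a Src-family kinase, was at 271 and 249.9 CPM in Div8neg, against 475 and 439.6 CPM in Div5 (1.76-fold lower), and the adaptor gene Blnk was 1.41-fold lower. Sh2b2, an adaptor of receptor kinases, was 1 of the 2 that rose, at 11.04 and 11.96 CPM in Div8neg, against 5.27 and 4.62 CPM in Div5 (2.32-fold higher). Of 15 MHC class II genes 14 fell and 0 rose (median -0.54), with 2 lower and 1 higher per cell (median -0.058). The members with the largest falls were the chains of H2-O, which restrains peptide loading. H2-Oa was at 78.96 and 67.6 CPM in Div8neg, against 224 and 201 CPM in Div5 (2.896-fold lower) and H2-Ob at 256 and 252 CPM in Div8neg, against 683 and 661 CPM in Div5 (2.65-fold lower), and both were also lower per cell (log2 -1.05 and -0.92). The peptide-presenting chains moved less: H2-Aa was 1.38-fold, H2-Ab1 1.25-fold and H2-Eb1 1.29-fold lower.

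Most genes of the secretory apparatus rose. Among 26 ER chaperones and disulfide isomerases 22 rose and 2 fell (median 0.61), and per cell 24 rose and 0 fell. In the lists for translocation into the ER and glycan transfer, 28 of 31 rose and 1 fell (median 0.48; per cell 29 rose and 0 fell, median 0.96). For ER-associated degradation 16 of 20 rose and 0 fell (median 0.47; per cell 18 rose and 0 fell, median 0.94), and for vesicle traffic from ER to Golgi 26 of 32 rose and 2 fell (median 0.33; per cell 30 rose and 0 fell, median 0.79). The summed level of the chaperone list was 974 and 1269 mRNAs per cell in Div8neg, against 535 and 541 mRNAs per cell in Div5. Of 17 regulators of the unfolded protein response 7 rose (41.2%) and 1 fell (median 0.18), and per cell 12 rose and 0 fell (median 0.64). Of the 17, 1 had passed the count minimum through 1 group only. The fall was that of Ppp1r15a, which restores translation after stress. All lists of this paragraph can be read against 30.4% of all genes higher and 30.1% lower (46.8% and 3.9% per cell).

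Creld2, an ER-resident chaperone gene, was at 159 and 236 CPM in Div8neg, against 82.95 and 108 CPM in Div5 (2.05-fold, SE 0.073 on the log2 scale, adjusted p = 7.62e-10). Derl3, which encodes a channel protein that passes misfolded proteins out of the ER, was at 78.3 and 117 CPM in Div8neg, against 41.2 and 51.4 CPM in Div5 (2.095-fold, adjusted p = 1.16e-09). Pdia6, a disulfide isomerase gene, was at 522 and 633 CPM in Div8neg, against 299.6 and 347 CPM in Div5 (1.78-fold). Host 197 was above host 196 in both groups for all 3, and the groups did not overlap. Sec24d, a cargo-binding coat protein gene of vesicles leaving the ER, was at 26.04 and 45.03 CPM in Div8neg, against 7.12 and 11.4 CPM in Div5 (3.81-fold), and Lman1, a cargo receptor gene, at 121 and 147 CPM in Div8neg, against 64.03 and 69.4 CPM in Div5 (2.01-fold). Creb3l2, an ER-membrane transcription factor gene, was at 35.3 and 49.5 CPM in Div8neg, against 14.6 and 17.5 CPM in Div5 (2.62-fold), and Ern1, for the stress sensor IRE1 that splices Xbp1 mRNA, was 1.53-fold higher. The counts do not tell spliced from unspliced Xbp1.

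The ER stress response element, bound by ATF6 and XBP1 with NF-Y, was sought as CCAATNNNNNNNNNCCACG on both strands of the RefSeq promoter windows (250 bases before to 50 after the start, GRCm38.p6). It was in 8 of the 23 chaperone genes with a window (34.8%), 2 of 17 degradation genes (11.8%), 0 of 23 translocation genes, 0 of 27 vesicle traffic genes and 0 of 16 regulators, against 18 of 9155 tested genes (0.197%). Of the 10 ER genes that held it 8 rose, Ero1lb fell and Syvn1 did not pass, and of the 8 other genes that held it 1 rose and 2 fell. The 250 bases before the start are shown for the 3 ER genes with the element that rose most, with the element in capitals, read 5′ to 3′ on the gene's strand, which is the plus strand in each (chr10:75893148-75893397 for Derl3, chr15:88819396-88819645 for Creld2 and chr12:17266339-17266588 for Pdia6). In Derl3 and Creld2 the element lies on the opposite strand, so its capitals read as the reverse complement.
Derl3: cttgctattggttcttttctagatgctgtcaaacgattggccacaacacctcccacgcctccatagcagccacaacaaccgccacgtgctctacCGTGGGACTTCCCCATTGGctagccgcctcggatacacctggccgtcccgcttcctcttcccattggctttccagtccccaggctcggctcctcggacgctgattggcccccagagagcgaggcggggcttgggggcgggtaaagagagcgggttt
Creld2: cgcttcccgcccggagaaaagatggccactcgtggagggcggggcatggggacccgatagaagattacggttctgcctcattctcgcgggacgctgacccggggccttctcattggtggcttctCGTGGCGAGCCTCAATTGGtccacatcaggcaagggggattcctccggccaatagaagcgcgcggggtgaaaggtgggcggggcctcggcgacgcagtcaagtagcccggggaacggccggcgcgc
Pdia6: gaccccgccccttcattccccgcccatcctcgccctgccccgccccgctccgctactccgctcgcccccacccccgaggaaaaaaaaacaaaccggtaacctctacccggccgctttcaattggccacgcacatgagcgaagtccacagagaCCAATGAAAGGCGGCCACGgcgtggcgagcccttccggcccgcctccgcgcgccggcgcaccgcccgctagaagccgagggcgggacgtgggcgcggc

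Most cell cycle genes rose. Of 51 replication genes 46 rose and 0 fell, with a median of 0.57, and 50 rose per cell. For this list and the next, 30.4% of all genes rose and 30.1% fell, and 46.8% rose per cell. Of 48 mitosis genes 38 rose and 1 fell, with a median of 0.28, none by 2-fold or more, and 45 rose per cell. Orc1 and Cdc6 load the replicative helicase at origins. Orc1 was at 32.8 and 32.1 CPM in Div8neg, against 15.4 and 15.8 CPM in Div5 (2.08-fold, adjusted p = 1.14e-07), and Cdc6 at 114 and 123 CPM in Div8neg, against 55.05 and 63.3 CPM in Div5 (2.01-fold). Rrm2, the ribonucleotide reductase subunit gene, was at 383 and 377 CPM in Div8neg, against 206 and 225 CPM in Div5 (1.77-fold). None of these overlapped between groups. In mitosis, Ccnb1 (cyclin B1, 1.404-fold), Bub1 (1.402-fold) and Ect2 (1.401-fold) led, and Cenpf, a kinetochore gene, was the member that fell (1.21-fold lower).

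In the list of E2F factors and cell cycle entry 17 of 20 rose and 1 fell (median 0.42), against 30.4% and 30.1% of all genes. Per cell 18 rose and 0 fell (median 0.89), against 46.8% and 3.9% of all genes. Ccne1, encoding cyclin E1, which drives entry into S phase, was at 114 and 111 CPM in Div8neg, against 48.0 and 55.9 CPM in Div5 (2.16-fold), and Ccne2 was 2.11-fold and Skp2 1.88-fold higher. Of 26 inhibitors and p53 targets tested 9 rose and 12 fell, against 30.4% and 30.1% of all genes (median -0.12). Per cell 11 rose and 3 fell, against 46.8% and 3.9% of all genes (median 0.34). Cdkn2b, among the 9, had met the count minimum through Div8neg only. The risers included Cdkn2a and Cdkn1a as given above and Pmaip1, a death gene of the BCL2 family (1.83-fold). Those that fell most were Sesn1, a brake on growth signals (40.8 and 37.03 CPM in Div8neg, against 104 and 99.1 CPM in Div5; 2.61-fold lower), and the antiproliferative gene Btg1 (206 and 204 CPM in Div8neg, against 473 and 452 CPM in Div5; 2.26-fold lower), and both fell per cell too (log2 -0.88 and -0.68).

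Most genes for making ribosomes, charging tRNA and making nucleotides rose, and most ribosomal protein genes fell on the relative scale and none per cell. These lists can be read against 30.4% of all genes higher and 30.1% lower (46.8% and 3.9% per cell). Of 44 genes of the MYC and ribosome biogenesis list 35 rose and 4 fell (median 0.41; per cell 40 rose and 1 fell, median 0.89), and of 21 nucleotide synthesis genes 20 rose and 0 fell (median 0.49; per cell 20 rose and 0 fell, median 0.97). Srm, a polyamine synthesis gene, was at 169 and 181 CPM in Div8neg, against 94.5 and 97.4 CPM in Div5 (1.82-fold). Impdh1, of guanine nucleotide synthesis, was at 30.4 and 34.2 CPM in Div8neg, against 9.87 and 11.7 CPM in Div5 (2.996-fold), and Umps, of pyrimidine synthesis, at 123 and 124 CPM in Div8neg, against 61.8 and 69.01 CPM in Div5 (1.89-fold). Myc itself was at 174 and 171 CPM in Div8neg, against 163 and 165 CPM in Div5, which did not pass (log2 0.075, SE 0.070, adjusted p = 0.362), though it passed per cell (log2 0.55, adjusted p = 0.027). Mxd4, which encodes a repressor that competes with MYC for MAX, fell 2.895-fold, to 26.5 and 23.6 CPM in Div8neg, against 75.6 and 69.6 CPM in Div5.

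Of 56 cytosolic ribosomal protein genes 49 fell and 1 rose on the relative scale, against 30.1% and 30.4% of all genes, but the fall was small (median -0.20). Per cell 0 fell and 2 rose, against 3.9% and 46.8% of all genes. The per-cell median was 0.29, and that of all genes was 0.43. Their summed level was 37290 and 35660 CPM in Div8neg, against 41180 and 41890 CPM in Div5, and 9807 and 10180 mRNAs per cell in Div8neg, against 8525 and 7781 mRNAs per cell in Div5. The largest fall was in Rps27 (297 and 274 CPM in Div8neg, against 375 and 382 CPM in Div5; 1.33-fold lower), and reads of these genes can also come from their many processed pseudogenes.

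Of 39 tRNA synthetase and amino acid supply genes 35 rose and 0 fell (median 0.50), against 30.4% and 30.1% of all genes. Per cell 36 rose, against 46.8% of all genes. Asns, asparagine synthetase, was at 24.03 and 29.5 CPM in Div8neg, against 7.12 and 8.77 CPM in Div5 (3.37-fold, SE 0.11 on the log2 scale, adjusted p = 7.70e-11). Slc7a5, the large neutral amino acid transporter, was at 236 and 240.2 CPM in Div8neg, against 97.5 and 114 CPM in Div5 (2.26-fold). Both genes were higher in each Div8neg library than in either Div5 library. Shmt1 (1.78-fold) and Mthfd2 (1.69-fold) of the folate cycle also rose. The amino acid response element bound by ATF4 was sought as TGATGNAA on both strands of the same windows. It was in 8 of 30 genes of this list with a window (26.7%), against 259 of 9155 tested genes (2.83%), and all 8 rose (Asns, Pycr1, Gars, Yars, Tars, Iars, Got1 and Aars, from 1.31- to 3.37-fold). Atf4 itself was at 221 and 245 CPM in Div8neg, against 211 and 232 CPM in Div5 (log2 0.074, adjusted p = 0.181). The 250 bases before the start are shown for the 2 members with the element that rose most, Asns (chr6:7693210-7693459) and Pycr1 (chr11:120643749-120643998), both on the minus strand of GRCm38.p6, written 5′ to 3′ on that strand with the element in capitals. Pycr1, which makes proline, was low, at 3.47 and 3.505 CPM in Div8neg, against 1.56 and 1.75 CPM in Div5.
Asns: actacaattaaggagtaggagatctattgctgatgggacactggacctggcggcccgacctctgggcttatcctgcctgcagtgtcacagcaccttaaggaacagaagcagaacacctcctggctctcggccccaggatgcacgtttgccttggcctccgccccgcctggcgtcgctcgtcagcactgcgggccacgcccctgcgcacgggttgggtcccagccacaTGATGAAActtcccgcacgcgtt
Pycr1: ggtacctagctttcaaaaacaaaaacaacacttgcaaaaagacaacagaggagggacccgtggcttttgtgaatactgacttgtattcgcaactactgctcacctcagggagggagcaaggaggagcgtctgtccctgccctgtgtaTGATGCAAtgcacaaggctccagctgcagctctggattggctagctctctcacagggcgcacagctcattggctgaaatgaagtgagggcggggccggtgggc

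Most genes of the energy and lipid lists rose. Their counts, and those of the proteasome, can be read against 30.4% of all genes higher and 30.1% lower (46.8% and 3.9% per cell). Of 56 oxidative phosphorylation genes 49 rose and 2 fell (median 0.32; per cell 53 rose and 0 fell, median 0.79), with Cycs, cytochrome c, at 125 and 126 CPM in Div8neg, against 70.2 and 83.3 CPM in Div5 (1.64-fold). Of 36 proteasome subunits 31 rose and 1 fell (median 0.43; per cell 33 rose and 0 fell, median 0.91), and the member that fell was Psmb10, a subunit of the immunoproteasome. Of 22 glycolysis genes 14 rose and 4 fell (median 0.53; per cell 16 rose and 1 fell, median 0.91). Hk2, hexokinase 2, was at 72.4 and 75.2 CPM in Div8neg, against 31.5 and 33.8 CPM in Div5 (2.26-fold), and Slc16a1, the lactate transporter MCT1, at 90.3 and 86.3 CPM in Div8neg, against 40.7 and 40.8 CPM in Div5 (2.17-fold). Aldoc, the brain form of aldolase, went the other way, at 8.75 and 8.15 CPM in Div8neg, against 21.2 and 21.04 CPM in Div5 (2.495-fold lower), while the common form Aldoa was 1.63-fold higher.

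Of 32 cholesterol and fatty acid synthesis genes 21 rose and 2 fell (median 0.38; per cell 25 rose and 1 fell, median 0.85). Idi1, of cholesterol synthesis, rose 1.903-fold, and Elovl6, a fatty acid elongase gene, was at 13.96 and 14.8 CPM in Div8neg, against 4.23 and 7.73 CPM in Div5 (2.42-fold). Abcg1, which exports cholesterol, fell to 12.4 and 15.8 CPM in Div8neg, against 36.95 and 34.4 CPM in Div5 (2.54-fold lower).

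Of the genes that keep and remove DNA methylation some rose and some fell relative to all genes. Dnmt1, the maintenance methyltransferase, was at 617 and 617 CPM in Div8neg, against 463 and 461 CPM in Div5 (1.34-fold), Uhrf1, its guide to newly copied DNA, at 573 and 563 CPM in Div8neg, against 401 and 399.9 CPM in Div5 (1.42-fold), and Hells, a chromatin remodeler gene, at 139 and 125 CPM in Div8neg, against 79.1 and 80.3 CPM in Div5 (1.66-fold). The dioxygenase genes Tet1 (9.65 and 6.63 CPM in Div8neg, against 19.1 and 13.9 CPM in Div5; 2.02-fold lower) and Tet2 (1.48-fold lower) fell on the relative scale, with per-cell adjusted p = 0.0599 and 0.8. Tdg, a glycosylase gene of active demethylation, rose 1.43-fold. Zbtb4, a reader of methylated DNA, fell on both scales, to 42.4 and 39.6 CPM in Div8neg, against 107 and 89.5 CPM in Div5 (2.39-fold lower). Over the DNA methylation list 9 of 19 rose and 9 fell (median 0.089; per cell 10 rose and 1 fell, median 0.56), and over 31 histone modifiers 12 rose and 8 fell (median 0.11; per cell 17 rose and 0 fell, median 0.58). The shares of both lists called on the relative scale can be read against 30.4% of all genes higher and 30.1% lower. Those called per cell can be read against 46.8% and 3.9%. Among the histone modifiers Suv39h2, an H3K9 methyltransferase gene, rose 1.67-fold and Kmt2a, an H3K4 methyltransferase gene, was 1.69-fold lower. Of 24 class switching and somatic mutation genes 14 rose and 3 fell (median 0.24; per cell 18 rose and 0 fell, median 0.68), led by Ung, which encodes a uracil glycosylase (75.7 and 71.9 CPM in Div8neg, against 37.2 and 39.8 CPM in Div5; 1.92-fold), Lig4 (1.81-fold) and Exo1 (1.73-fold).

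Most interferon-stimulated genes fell relative to all genes. Of 39 tested 31 fell and 1 rose (median -0.50), against 30.1% and 30.4% of all genes. Per cell 6 fell and 5 rose (median -0.019), against 3.9% and 46.8% of all genes. Stat2, a signal transducer of interferon receptors, was at 130.1 and 134 CPM in Div8neg, against 233 and 247 CPM in Div5 (1.81-fold lower, adjusted p = 3.99e-11). The groups were well apart, yet per cell it did not pass (log2 -0.37, adjusted p = 0.145). Gbp6, a guanylate-binding protein gene whose reads may be shared with its paralogs, was at 3.47 and 3.43 CPM in Div8neg, against 14.5 and 12.03 CPM in Div5 (3.84-fold lower, and lower per cell). Bst2, tetherin, was the member that rose (25.4 and 26.5 CPM in Div8neg, against 15.6 and 19.1 CPM in Div5; 1.50-fold).

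The interferon-stimulated response element was sought as GAAA, any 2 bases and GAAA on both strands of the same windows. It was in 18 of 28 members with a window (64.3%), against 348 of 9155 tested genes (3.8%). Of the 18 with it 14 fell and 1 rose, and of the 10 without it 6 fell and 0 rose, with medians of -0.45 and -0.43. The bases before the start are shown for the 2 members with the element that fell most, Stat2 (chr10:128270248-128270497) and Ifit3 (chr19:34583279-34583528), both on the plus strand of GRCm38.p6, written 5′ to 3′ with the element in capitals. It lies on the opposite strand in both, at 1 place in Stat2 and at 2 in Ifit3, which was at 2.71 and 4.496 CPM in Div8neg, against 5.79 and 6.61 CPM in Div5 (1.74-fold lower).
Stat2: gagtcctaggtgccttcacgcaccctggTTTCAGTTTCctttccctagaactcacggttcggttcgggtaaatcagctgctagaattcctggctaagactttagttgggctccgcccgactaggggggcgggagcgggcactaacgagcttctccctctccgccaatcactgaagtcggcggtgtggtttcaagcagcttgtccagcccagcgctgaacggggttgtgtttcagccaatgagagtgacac
Ifit3: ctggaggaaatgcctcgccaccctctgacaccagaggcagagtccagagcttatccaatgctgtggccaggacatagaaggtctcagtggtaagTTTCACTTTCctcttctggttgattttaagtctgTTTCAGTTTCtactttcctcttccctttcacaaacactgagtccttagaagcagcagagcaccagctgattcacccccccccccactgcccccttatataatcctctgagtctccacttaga

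In the TLR and NF-kB list 22 of 35 fell and 6 rose (median -0.33), against 30.1% and 30.4% of all genes. Per cell 1 fell and 8 rose (median 0.16), against 3.9% and 46.8% of all genes. Tlr1 was at 100.4 and 91.2 CPM in Div8neg, against 224 and 212 CPM in Div5 (2.28-fold lower) and was the member lower per cell (log2 -0.70). Tlr4, the LPS receptor, was at 10.1 and 11.3 CPM in Div8neg, against 12.3 and 12.1 CPM in Div5 (log2 -0.19, adjusted p = 0.284). Against the list, the cytokine gene Il10 was at 16.9 and 20.6 CPM in Div8neg, against 5.57 and 10.9 CPM in Div5 (2.31-fold higher, adjusted p = 2.59e-06), with the lower Div8neg library above the higher Div5 library. Il6, low throughout and named after its values were seen, had 46 and 54 counts in Div8neg, against 11 and 11 counts in Div5 (adjusted p = 3.70e-05).

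Homing and adhesion genes can be read against the 30.4% of all genes that were higher and the 30.1% that were lower (46.8% and 3.9% per cell). Of 20 chemokine receptor and migration genes 7 rose and 9 fell (median -0.021; per cell 9 rose and 5 fell, median 0.34), and 2 of the 20 had passed the count minimum through 1 group only. Those that fell by 2-fold or more include Cxcr5, the receptor that leads B cells into follicles, at 198 and 194 CPM in Div8neg, against 417 and 394 CPM in Div5 (2.07-fold lower), Ccr6 at 302 and 281 CPM in Div8neg, against 658 and 596 CPM in Div5 (2.15-fold lower), and S1pr1, the receptor for leaving lymphoid tissue, at 73.3 and 63.5 CPM in Div8neg, against 151 and 131 CPM in Div5 (2.06-fold lower). All 3 also fell per cell (log2 -0.56, -0.62 and -0.55). Besides S1pr2, Cxcr4, the receptor that brings plasma cells to bone marrow, rose to 33.9 and 37.6 CPM in Div8neg, against 17.9 and 21.7 CPM in Div5 (1.81-fold). Among 22 integrin and adhesion genes 8 rose and 6 fell (median -0.051; per cell 10 rose and 0 fell, median 0.43). Emb, embigin, was at 17.4 and 14.6 CPM in Div8neg, against 5.57 and 5.10 CPM in Div5 (2.998-fold), and Itgam, which encodes the CD11b chain common on myeloid cells and found on some activated B cells, at 103 and 132 CPM in Div8neg, against 51.6 and 79.8 CPM in Div5 (1.81-fold). Pecam1 was 1.49-fold lower.

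Of 28 genes of TNF receptors and costimulation 13 fell and 4 rose (median -0.26; per cell 3 fell and 9 rose, median 0.21), with 3 of the 28 past the count minimum through 1 group only. Next to Icosl, Tnfrsf14 (2.27-fold lower), Tnfrsf18 (2.501-fold lower) and Cd40 (101 and 94.1 CPM in Div8neg, against 161 and 157 CPM in Div5; 1.63-fold lower) fell, and Tnfrsf1b, TNF receptor 2, rose to 91.1 and 96.1 CPM in Div8neg, against 49.04 and 52.8 CPM in Div5 (1.84-fold). Of 25 apoptosis genes 13 fell and 7 rose (median -0.16; per cell 0 fell and 10 rose, median 0.32). These lists and those that follow can be read against 30.4% of all genes higher and 30.1% lower. Per cell these shares were 46.8% and 3.9%. Bcl2, which protects resting B cells, was at 79.5 and 80.8 CPM in Div8neg, against 135 and 132 CPM in Div5 (1.67-fold lower), and the executioner gene Bak1 was 1.35-fold higher.

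Of 25 quiescence and recirculation genes 16 fell and 4 rose (median -0.39; per cell 5 fell and 5 rose, median 0.045). Foxp1, a factor of resting B cells, was at 149 and 166 CPM in Div8neg, against 308 and 329 CPM in Div5 (2.02-fold lower), and Pik3ip1, a brake on PI3 kinase, at 5.83 and 4.88 CPM in Div8neg, against 13.4 and 14.5 CPM in Div5 (2.59-fold lower). The list of marginal zone and B1 cell genes had 11 lower and 5 higher of 20 (median -0.39; per cell 6 lower and 7 higher, median 0.087). Its members went both ways. Cr2 and Cd1d1 (2.401-fold lower) of marginal zone cells fell. Spn, the CD43 sialoglycoprotein of B1 and plasma cells, was at 231 and 261 CPM in Div8neg, against 61.7 and 87.3 CPM in Div5 (3.32-fold higher). Bhlhe41, a factor of B1 cells, was at 189 and 189 CPM in Div8neg, against 84.1 and 101 CPM in Div5 (2.05-fold higher). The list did not part cleanly by cell type. Cd5, a B1 cell gene, was at 3.75 and 3.66 CPM in Div8neg, against 4.82 and 4.86 CPM in Div5. Mzb1, named for both cell types, was at 309 and 339 CPM in Div8neg, against 203 and 217 CPM in Div5. The donor cells had been taken as CD43-negative.

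**Figure D4:**
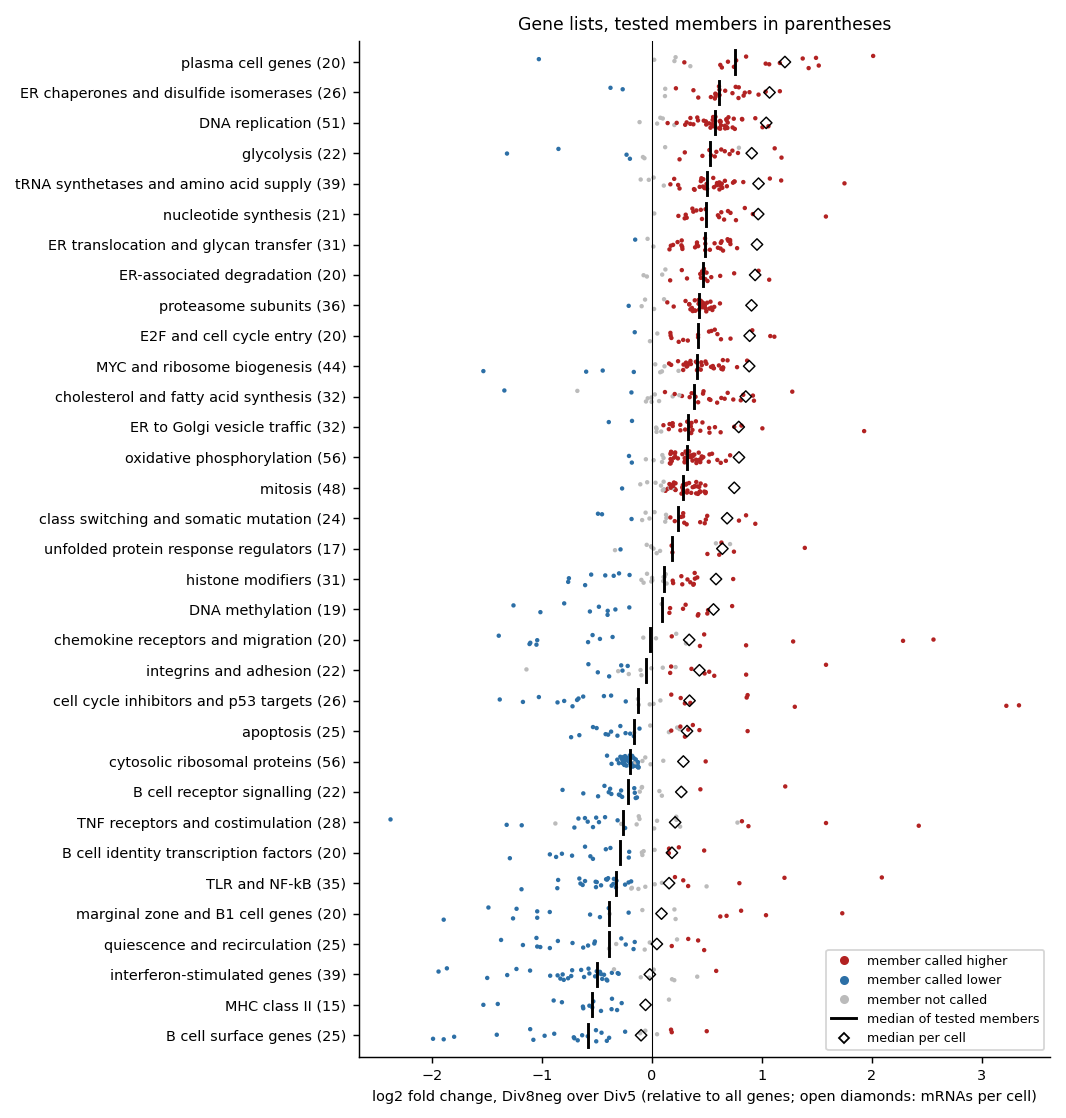
Log2 fold change of Div8neg over Div5 relative to all genes for the tested members of 33 gene lists, ordered by median, with red for members called higher, blue for members called lower and grey for the rest; black bars are list medians and open diamonds the medians of the same members per cell. Medians run from 0.76 in plasma cell genes to -0.58 in B cell surface genes, and per cell the lists below 0 move to values from -0.10 to 0.43.

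A last comparison asked whether the step from Div5 to Div8neg differed from the step before it, Div3 to Div5, by testing the difference between the steps in the same edgeR fit (the Div5 libraries enter both steps). It passed for 1393 of 11407 genes (12.2%), 366 higher (3.21%) and 1027 lower (9.0%), a positive value meaning a larger rise or a smaller fall in the later step. This count is fragile: it was 824 without the host block, 771 by DESeq2, 479 without the Div5 library of host 196, 530 without the Div5 library of host 197 and 98 with spike-in scaling, though the lower genes outnumbered the higher ones each time.

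Anxa2, S1pr2 and Lcp2 rose in the later step and not in the earlier one. Anxa2 changed by log2 3.43 in the later step and -0.41 in the earlier one (adjusted p = 0.282), a difference of 3.84 (SE 0.44, adjusted p = 6.92e-06). For Lcp2 the difference was 3.02 (adjusted p = 0.00205), for Slpi 3.37 (0.00149), for S1pr2 2.17 (0.00112), for Neil1, a DNA glycosylase gene, 1.94 (5.21e-06) and for Mybl1 1.76 (0.00981). Without the Div5 library of host 196 the difference did not pass for Lcp2, Slpi or Mybl1, and without that of host 197 it did not for S1pr2 or Mybl1; with spike-in scaling it did not for Mybl1. Irf4 changed by log2 0.64 in the later step and -0.19 in the earlier one (adjusted p = 0.0191), a difference of 0.82 (adjusted p = 2.19e-05). Cdkn2a, at 0.384 and 0.461 CPM in Div3, had log2 changes of 3.23 in the later and 2.17 in the earlier step (difference adjusted p = 0.357).

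The largest differences below 0 included those of Grm6, Aire and Ptpn14, which fell in both steps and more in the later one. Grm6 changed by -4.03 in the later step and -1.05 in the earlier one (difference -2.98, adjusted p = 1.29e-08). Fam101b (-2.78), Aire (-2.11), Ptpn14 (-2.001) and Srgap3, a GTPase regulator gene (-2.81), also differed. Among the lists, 17 of 25 B cell surface genes, 13 of 39 interferon-stimulated genes and 13 of 20 marginal zone and B1 genes passed with a difference below 0 (9.0% of all genes did), and 0 in each passed with one above 0. In mitosis 6 of 48 passed below 0, a share near that of all genes, and 0 above. The list's median was 0.28 in the later step and 0.45 in the earlier one. For the chaperones the medians were 0.61 in the later and 0.37 in the earlier step, with 5 of 26 passing above 0 (3.21% of all genes did) and 0 below.

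Several of the rises did not go on in CD138-positive cells that had also divided at least 8 times. Lcp2 was at 3.56 and 2.06 CPM in Div8pos, against 22.01 and 18.3 CPM in Div8neg (log2 -2.83, adjusted p = 1.56e-08). S100a6 was at 0.728 and 0.447 CPM in Div8pos, against 25.0 and 25.5 CPM in Div8neg (log2 -5.39). Itga8 had 0 counts in both Div8pos libraries, against 10.6 and 13.3 CPM in Div8neg. Anxa2 (log2 -1.58), S1pr2 (-1.27), Diras2 (-2.07) and Mybl1 (-1.05) were also lower in Div8pos than in Div8neg, so in these libraries their highest level was in Div8neg. Slpi (log2 0.66, adjusted p = 8.16e-05), Myadm (0.43) and Gm6455 (3.54) were higher still in Div8pos, and Cdkn2a did not pass (log2 -0.32, adjusted p = 0.0583). The Div8neg libraries enter both of these comparisons. Div8pos against Div8neg called 8657 of 11407 genes (75.9%), 4460 higher (39.1%) and 4197 lower (36.8%).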

How the data were processed

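Per the file headers' readme, the deposited counts are reads that fell on KnownGenes exons (UCSC, mm9), and the deposited signal in mRNAs per cell is FPKM scaled by 1 spike-in factor per library, which was checked from the values. Per the submitters' processing notes Picard, R 3.2.2 and mm9 were used; the sources used here do not give the aligner, the counting program or its use of strand. Per the labels' protocols, libraries came from 40000 cells (KAPA stranded mRNA kit, 11 PCR cycles, 50 bp paired-end, HiSeq2500). The 90 genes without a symbol (0.0498 to 0.0943% of counts) and the bisulfite libraries of the design text were not analysed here.

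Counts were fitted with edgeR 4.0.16 in R 4.3.3 (TMM, quasi-likelihood test) over all 12 libraries, so that the groups share 1 estimate of the spread, with host number as a block; per-cell values were fitted likewise with limma 3.58.1 on log2(value + 0.1). Calls are at a Benjamini-Hochberg adjusted p under 0.05. Host numbers come from the labels: deviations of same-numbered libraries from their group means correlated at 0.185 between Div8neg and Div5, and at -0.023 to 0.428 over all pairs of groups, lowest with Div8pos. The libraries of a group differed by more than counting error (chi-square over degrees of freedom 2.48 in Div8neg and 2.62 in Div5). Alternatives were DESeq2 1.42.0, its size factors, spike-in scaling, no host block, other filters and pseudocounts, a fit of the 4 libraries alone and each library left out. Members, gene lists and tests were chosen with earlier results of these data known. Genes named are fixed anchors, the 12 largest called changes each way with at least 10 CPM, up to 4 called members per list, the 10 largest falls and 5 largest rises per cell, the 6 largest step differences each way, and other list members chosen after their values were seen; some genes that these rules pick are not reported here. Promoter windows are from RefSeq (GRCm38.p6) and were matched by gene ID for 9155 of 11407 genes.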

Additional observations from a re-analysis of the deposited data

How the results depend on the processing

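The split of calls depends on the scale. With spike-in scaling 5332 genes were higher and 392 lower, and 1538 changed by 2-fold or more, since that scaling moves the median of all genes to 0.49. All other alternatives with all libraries kept the counts relative to all genes within 1.5 times (5470 called by DESeq2 to 7499 in a fit of the 4 libraries), and without 1 library each they were 5479 to 5924 (2649 to 2916 higher, 2791 to 3008 lower, 794 to 877 by 2-fold or more). Without the replicate block 6441 genes passed. Per cell, leaving out 1 library gave 2567 to 6169 genes, 2068 to 5966 higher and 203 to 499 lower. The ratio of total mRNA was 1.34 to 1.48 without 1 library each. The step difference gave 771 genes by DESeq2 (122 higher, 649 lower, 168 by 2-fold), 824 without the replicate block (161 and 663), and 98 with spike-in scaling (27 and 71, 98 by 2-fold); without 1 library each it gave 479 to 1089 (58 to 251 higher, 421 to 861 lower, 133 to 260 by 2-fold).

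Of the named genes, 6 values relative to all genes and 11 per cell changed sign. With spike-in scaling Bcl6 was at 0.27, Rpl17 at 0.12, Rps27 at 0.082 and Rps7 at 0.17. Leaving out 1 library each, the log2 change relative to all genes ran between -0.031 and 0.15 for Myc, with the lowest without the Div8neg library of host 196, and between -0.035 and 0.78 for Sdc1, with the lowest without that of host 197. The per-cell log2 change ran between -0.37 and 0.023 for Bcl2a1b, -0.19 and 0.18 for Blnk, -0.37 and 0.14 for Ezh1, -0.21 and 0.098 for Fas, -0.30 and 0.20 for Pax5, -0.25 and 0.059 for Pecam1, -0.35 and 0.073 for Vav2, -0.017 and 0.25 for Rpl17, and -0.056 and 0.21 for Rps27, with the lowest of each without the Div5 library of host 197 and the highest without that of host 196. The cause was not tested. A further 27 values relative to all genes, 59 per cell and 6 step differences lost their call, and 1813, 1160 and 104 kept it or stayed uncalled. Of list counts 95 moved by over 1.5 times, 35 of them with spike-in scaling, and 697 did not.

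With 2 hosts the tests cannot speak for other animals. Each per-cell value rests on the spike-ins of its library, so an error there moves all genes of that library together. Low genes such as Cdkn2b rest on few counts, and PCR copies were not removed by molecular tags.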
